A study of Mus musculus with 18 samples.

Results

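The 10 genes described here lie within or beside *Nf1* on mouse chromosome 11 and were taken by symbol from the 35275 genes of an RNA-seq count table: *Omg*, *Evi2a*, *Evi2b*, *Rab11fip4*, *Utp6*, *Crlf3*, *Atad5*, *Adap2*, *Rnf135* and *Tefm*. The table covers 18 libraries of malignant peripheral nerve sheath tumor (MPNST) lines, 9 of each genotype. In the *Nf1*/*p53* dKO group, 3 lines came from tumors edited in *Nf1* and *p53* (*Trp53*) and were labelled Nf1-/-;p53-/-. In the *Nf1*/*Cdkn2a* dKO group, 3 lines came from tumors edited in *Nf1* and *Cdkn2a* and were labelled Nf1-/-;Cdkn2a-/-. Each line came from its own tumor and was sequenced as 3 cultures. The tumors were started in the sciatic nerve of wild-type mice with an adenovirus carrying CMV-driven Cas9 and guides, and the mouse ages are not given in the sources used here. All 6 lines therefore come from tumors edited in *Nf1*, and the edited alleles of each line are not given in the sources used here. No line with intact *Nf1* was measured, and the lines are labelled mesenchymal and untreated. A line is the product of 1 tumor after long passage in culture, so the lines are the replicates of a genotype, and the 3 cultures of a line show only the spread within it.

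*Nf1* encodes neurofibromin, a GTPase-activating protein that switches RAS off, and its loss is the founding event of MPNSTs in neurofibromatosis type 1. Some patients lose the whole gene together with its neighbors in a contiguous microdeletion, which takes *SUZ12*, *ATAD5*, *RNF135* and other genes of the interval, so that the neighbors of *Nf1* are a known companion of its loss. The short genes *Omg*, *Evi2a* and *Evi2b*, sit inside an *Nf1* intron on the opposite strand and are known from myelinating cells and leukocytes. The comparison asked whether the levels of the 10 neighbors moved together with *Nf1* over the 6 lines, and whether they differed between the genotypes.

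In GRCm38, *Nf1* spans chromosome 11, 79339693 to 79581612 on the plus strand. *Omg* (79500982 to 79504084), *Evi2b* (79515056 to 79523762) and *Evi2a* (79526560 to 79530609) all lie on the minus strand in intron 36 of the longest coding *Nf1* transcript, which has 58 exons, and share no exonic base with *Nf1*. *Rab11fip4* begins 9.6 kb beyond the 3′ end of *Nf1*. The others follow at 351 kb (*Utp6*), 465 kb (*Crlf3*), 508 kb (*Atad5*), 555 kb (*Tefm*), 572 kb (*Adap2*) and 602 kb (*Rnf135*), so that all 7 flanking genes of the list lie on the 3′ side.

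RefSeq promoter entries of 300 bases (GRCm38.p6, 250 bases before the start to 50 after it) were found for 6 of the 10 genes and for *Nf1*. The entries of *Nf1*, *Atad5*, *Adap2* and *Evi2b* are shown because these genes range from well counted to uncounted in the lines. Capitals mark the dinucleotide CG, which reads the same on both strands. They are at chr11:79339642-79339941 (plus strand), chr11:80089150-80089449 (plus strand), chr11:80153912-80154211 (plus strand) and chr11:79523713-79524012 (minus strand), in that order.
Nf1: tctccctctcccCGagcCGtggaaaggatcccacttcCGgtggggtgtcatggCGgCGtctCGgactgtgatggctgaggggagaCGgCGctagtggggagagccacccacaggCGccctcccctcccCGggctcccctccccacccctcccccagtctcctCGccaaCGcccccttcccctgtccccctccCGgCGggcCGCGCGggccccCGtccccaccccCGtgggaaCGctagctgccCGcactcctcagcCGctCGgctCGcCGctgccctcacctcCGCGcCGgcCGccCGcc
Atad5: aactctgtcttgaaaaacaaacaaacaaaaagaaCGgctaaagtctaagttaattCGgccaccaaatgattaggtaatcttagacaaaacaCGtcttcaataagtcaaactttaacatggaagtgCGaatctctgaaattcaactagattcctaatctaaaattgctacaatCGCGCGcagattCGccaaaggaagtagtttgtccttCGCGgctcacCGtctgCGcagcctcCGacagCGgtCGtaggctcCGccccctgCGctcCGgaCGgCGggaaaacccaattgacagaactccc
Adap2: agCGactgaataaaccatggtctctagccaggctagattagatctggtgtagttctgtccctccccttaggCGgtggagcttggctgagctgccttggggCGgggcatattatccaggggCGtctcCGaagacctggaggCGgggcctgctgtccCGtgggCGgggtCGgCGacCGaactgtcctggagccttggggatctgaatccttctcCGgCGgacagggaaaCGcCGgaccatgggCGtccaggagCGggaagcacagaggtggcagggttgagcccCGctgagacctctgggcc
Evi2b: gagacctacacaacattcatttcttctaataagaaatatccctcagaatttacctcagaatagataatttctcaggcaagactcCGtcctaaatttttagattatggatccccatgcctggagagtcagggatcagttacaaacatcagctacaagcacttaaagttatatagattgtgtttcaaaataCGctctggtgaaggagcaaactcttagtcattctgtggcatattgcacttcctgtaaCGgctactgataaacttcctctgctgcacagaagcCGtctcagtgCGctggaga
The *Nf1* entry held 30 CG dinucleotides, and 11.7% of all promoter entries held as many. *Atad5* had 20 and *Adap2* 18, numbers reached by 26.5% and 29.7% of entries. *Evi2b* had 5, against a median of 7 over all entries. *Crlf3*, *Tefm* and *Rnf135* had 26, 15 and 13. *Adap2* thus had nearly as many CG dinucleotides as *Atad5*, although its counts were far lower.

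Library totals were 19560535 to 28312207 counts, and each line had 65206479 to 73065228 counts over its 3 cultures. Levels are given as CPM, the count of a gene divided by the total of its library, after TMM scaling, which evens out library composition. A gene was called when edgeR's quasi-likelihood test gave a Benjamini-Hochberg adjusted p under 0.05 over all genes tested. *Trp53*, the gene edited in one group, was lower in the lines labelled *Nf1*/*p53* dKO (73.4 ± 18.5 CPM) than in those labelled *Nf1*/*Cdkn2a* dKO (226 ± 35.6 CPM, SD, n = 3 lines each, edgeR adjusted p = 0.0361). No line of one group overlapped with the other, but the call was lost in 5 of the 6 fits with 1 line left out (all but that without *Nf1*/*p53* dKO line 1; edgeR adjusted p 0.0436 to 0.124, log2 fold change 1.49 to 1.84) and with the line number as a block (edgeR adjusted p = 0.0965). *Cdkn2a* was counted at 42.9 to 363 CPM in *Nf1*/*p53* dKO lines and at 169 to 392 CPM in *Nf1*/*Cdkn2a* dKO lines, and gene counts do not show whether a small edit disrupted a protein, so lines are named by label. Mesenchymal markers summed to 7646 CPM or more in every line, led by *Vim* with a mean of 7253 CPM. Of 11 leukocyte markers measured, *Tyrobp* and *Cd3e* had at most 3 counts in every culture, and the list summed to 4.68 to 7.24 CPM in *Nf1*/*p53* dKO lines and 28.8 to 36.4 CPM in *Nf1*/*Cdkn2a* dKO lines, led by *Laptm5*. The part of such cells in the results below was not tested, and in bulk RNA fewer cells of a type and less RNA per cell cannot be told apart. The paper states that the lines were passaged to obtain pure tumor cells and that infiltrating immune cells do not survive the derivation. Whether the tumor cells made the leukocyte marker transcripts was not tested. Of 7 oligodendrocyte markers, 6 had at most 3 counts in every culture. The 8 Schwann cell markers summed to 17.0 to 137 CPM over the 6 lines, led by *Pmp22* with a mean of 35.3 CPM. The 4 endothelial markers summed to 0.641 to 2.02 CPM.

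*Nf1* itself was still transcribed in all 6 lines, at levels that differed 5.49-fold between the highest and the lowest. In *Nf1*/*p53* dKO lines 1, 2 and 3, its level was 70.0, 33.5 and 27.7 CPM. In *Nf1*/*Cdkn2a* dKO lines 1, 2 and 3, it was 12.7, 38.3 and 16.2 CPM. Line 2 of the second group lay above 2 lines of the first, so the genotypes overlapped. The difference between genotypes, *Nf1*/*Cdkn2a* minus *Nf1*/*p53* dKO, was a log2 fold change of -0.96 (SE 0.52, edgeR adjusted p = 0.328). Between lines lay 94.7% of the log2 variance of the cultures, although the cultures of *Nf1*/*Cdkn2a* dKO line 3 ran from 11.9 to 21.8 CPM and overlapped with those of line 1 (11.2 to 14.4 CPM).

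Among the genes nested in the *Nf1* intron, only *Evi2a* was counted in quantity. *Evi2a*, named as a viral integration site of murine leukemia, was at 10.5, 12.1 and 29.6 CPM in *Nf1*/*p53* dKO lines 1 to 3 and at 14.9, 9.32 and 10.1 CPM in *Nf1*/*Cdkn2a* dKO lines 1 to 3. *Nf1*/*p53* dKO line 3 stood above the others, and its 3 cultures (27.2 to 32.4 CPM) did not overlap with those of any other line (8.51 to 18.1 CPM). That line was not high in *Nf1*, and the line with the highest *Nf1*, *Nf1*/*p53* dKO line 1, was in the lower part of the *Evi2a* range. *Evi2a* shares 442 of its 2297 exonic bases with an annotated readthrough gene, *Gm21975* (named *Evi2* in GENCODE).

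*Omg*, which encodes the oligodendrocyte-myelin glycoprotein, an inhibitor of neurite outgrowth, had 0 to 5 counts per library and 20 counts in all 18. The counts over the cultures of *Nf1*/*p53* dKO lines 1 to 3 were 1, 3 and 5, and those of *Nf1*/*Cdkn2a* dKO lines 1 to 3 were 3, 5 and 3. These numbers were too small for a comparison of the lines. *Evi2b*, a membrane protein of leukocytes, had 0 counts in all 18 libraries. In the shallowest line a count of 0 allows up to 3 counts, or 0.046 CPM, counting error only. In GENCODE M21, 1831 of the 1858 exonic bases of *Evi2b* also belong to *Gm21975*, which leaves 27 of its own. *Gm21975* had 1671 exonic bases of its own and 26 counts in the 18 libraries, with 0 to 4 per library. Whether reads shared by several genes were dropped is not given in the sources used here, and the part of the shared exons in the 0 of *Evi2b* was not tested.

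The nearest flanking gene, *Rab11fip4*, was also scarce. It encodes an effector of the GTPase RAB11 in endosome recycling, and 0 to 7 counts per library were found, 29 in all. By line these were 2, 4 and 6 counts in *Nf1*/*p53* dKO lines and 3, 7 and 7 in *Nf1*/*Cdkn2a* dKO lines, and 8 of the 18 libraries had none. *Omg*, *Evi2b* and *Rab11fip4* did not pass the filter on low counts, so that 7 of the 10 genes were tested between genotypes. *Adap2*, a GTPase-activating protein for ARF6, passed it with 65 counts in all. Its counts were 5, 12 and 6 in *Nf1*/*p53* dKO lines and 18, 6 and 18 in *Nf1*/*Cdkn2a* dKO lines, and 1 culture held 12 of the 18 counts of *Nf1*/*Cdkn2a* dKO line 1 and 13 of the 18 of line 3. Of its 1785 exonic bases, 146 overlap the antisense gene *Adap2os*, and use of strand in the counting is not given in the sources used here.

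**Figure D1:**
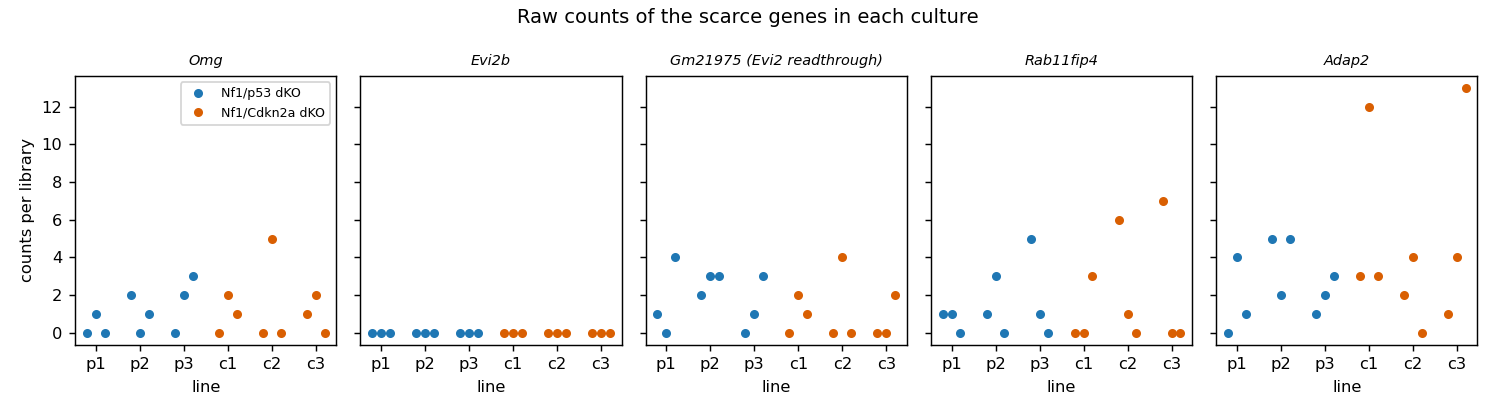
Raw counts per library (vertical axis) of 4 scarce genes and of the readthrough gene *Gm21975* in the 3 cultures of each line (p1 to p3, *Nf1*/*p53* dKO lines 1 to 3; c1 to c3, *Nf1*/*Cdkn2a* dKO lines 1 to 3), 1 point per culture. *Evi2b* is at 0 in all 18 libraries, and the 12 and 13 counts of *Adap2* in 1 culture each stand above its other values.

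The remaining flanking genes were counted in every library. *Utp6*, a component of the small-subunit processome that makes 18S ribosomal RNA, was at 107, 140 and 122 CPM in *Nf1*/*p53* dKO lines 1 to 3 and at 98.4, 87.0 and 79.4 CPM in *Nf1*/*Cdkn2a* dKO lines 1 to 3. Each *Nf1*/*p53* dKO line was above each *Nf1*/*Cdkn2a* dKO line. *Atad5*, which unloads the sliding clamp PCNA from DNA after replication, was at 27.4, 29.8 and 42.7 CPM in the first group and at 26.2, 18.4 and 19.1 CPM in the second. Its groups did not overlap either, but line 1 of each group (27.4 and 26.2 CPM) lay close to the other. *Tefm*, the elongation factor of mitochondrial transcription, was at 11.3, 12.3 and 11.2 CPM in *Nf1*/*p53* dKO lines and at 9.13, 10.9 and 7.37 CPM in *Nf1*/*Cdkn2a* dKO lines, again without overlap.

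*Crlf3*, a cytokine receptor-like protein, was at 42.5, 46.4 and 35.9 CPM in *Nf1*/*p53* dKO lines and at 41.0, 51.8 and 35.9 CPM in *Nf1*/*Cdkn2a* dKO lines. It varied the least of the 7, by 1.44-fold between the highest and lowest line, and 81.8% of all genes tested varied more. *Rnf135*, a ubiquitin ligase that activates the RNA sensor RIG-I, was at 3.67, 4.70 and 5.52 CPM in *Nf1*/*p53* dKO lines and at 5.33, 4.99 and 7.37 CPM in *Nf1*/*Cdkn2a* dKO lines. Its highest line was *Nf1*/*Cdkn2a* dKO line 3 and its lowest *Nf1*/*p53* dKO line 1, the line where *Nf1* was highest. Across the 7 genes the ratio of highest to lowest line ran from 1.44 to 4.48, the latter for the scarce *Adap2*, beside a median of 2.12 over all genes tested.

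**Figure D2:**
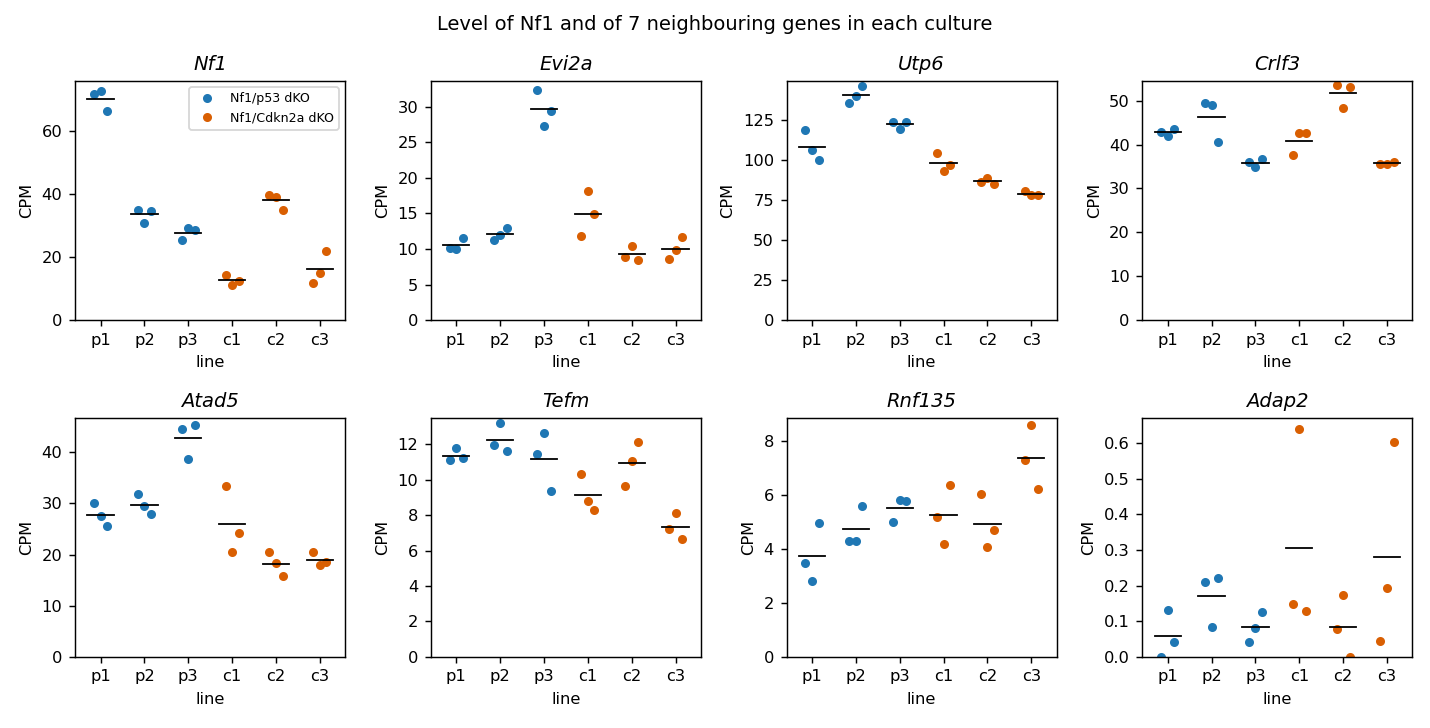
CPM (vertical axis, from 0) of *Nf1* and of the 7 tested neighbors in the 3 cultures of each line (points; bars are the mean of 3 cultures; p1 to p3, *Nf1*/*p53* dKO lines 1 to 3; c1 to c3, *Nf1*/*Cdkn2a* dKO lines 1 to 3). *Nf1* is highest in p1, *Evi2a* and *Atad5* in p3, and *Rnf135* in c3.

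Set in order per kilobase of exon not shared with other genes, on the CPM scale, *Utp6* was first with 23.4 ± 5.03 CPM per kb (SD over 6 lines). *Crlf3* (9.92 ± 1.45), *Evi2a* (7.76 ± 4.15), *Tefm* (6.60 ± 1.14), *Atad5* (3.62 ± 1.17), *Rnf135* (2.46 ± 0.569) and *Nf1* (2.09 ± 1.30) followed. The lines of *Utp6* did not overlap with those of *Crlf3*, while each later neighbor in this order overlapped with the next. *Tefm* was nevertheless above *Atad5* in 6 of 6 lines, and *Evi2a* was above *Tefm* in 3 of 6. Over its full exonic length, as would apply if shared reads were counted, *Evi2a* was at 6.27 CPM per kb, below *Tefm*, so the order of these 2 genes depends on the counting. *Adap2* (0.099 ± 0.062), *Omg* (0.022 ± 0.0096) and *Rab11fip4* (0.0095 ± 0.0044) lay far below *Nf1*, without overlap with it.

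The genotypes did not differ in a called way for any of the 7 genes tested, beside 1.80% of all genes called (274 of 15207). The fitted value was lower in *Nf1*/*Cdkn2a* dKO lines for 4 of the 7 genes, beside 51.8% of all genes. *Utp6* had a log2 fold change of -0.48 (SE 0.16, 95% interval -0.86 to -0.11, edgeR adjusted p = 0.143), and *Atad5* of -0.65 (SE 0.24, interval -1.23 to -0.07, edgeR adjusted p = 0.184). These were the 2 genes with an unadjusted p under 0.05, which 22.4% of all genes had. *Tefm* had a log2 fold change of -0.35 (interval -0.90 to 0.20) and *Evi2a* of -0.61 (interval -1.68 to 0.47). *Rnf135* had 0.35 (interval -0.37 to 1.06), *Crlf3* 0.04 (interval -0.41 to 0.50) and *Adap2* 1.04 (interval -0.56 to 2.64). For these 5 genes edgeR's adjusted p ranged from 0.404 to 0.909.

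The lines did not overlap between genotypes for 3 of the 7 genes, beside 31.4% of all genes tested. All 3 (*Utp6*, *Atad5* and *Tefm*) were lower in *Nf1*/*Cdkn2a* dKO lines, which held for 16.6% of all genes. The median log2 fold change of the 7 genes was -0.35, beside -0.02 over all genes tested. Without *Nf1*/*p53* dKO line 3, the *Evi2a* difference was 0.03 in place of -0.61, so that its value rested on that line. Treating the 18 cultures as separate samples in edgeR called *Utp6*, *Atad5* and *Tefm*, beside 46.5% of all genes, but cultures of 1 line are not independent tumors.

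**Figure D3:**
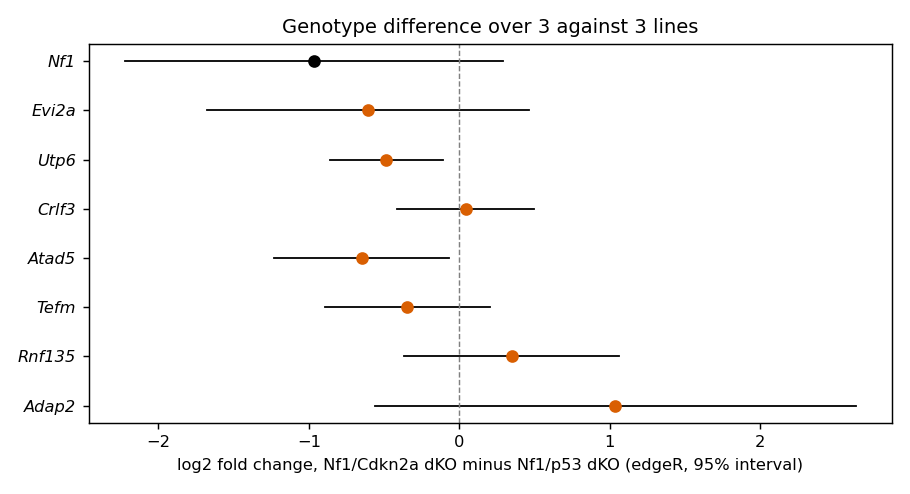
Log2 fold change (horizontal axis) of *Nf1* (black) and 7 neighbors (orange), *Nf1*/*Cdkn2a* minus *Nf1*/*p53* dKO over 3 against 3 lines. Lines are edgeR 95% intervals, and those of *Utp6* and *Atad5* lie below 0, although neither passed the adjusted threshold.

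Between the 6 lines, differences larger than the spread of the cultures were common. All 6 neighbors that passed the filter on 18 libraries were called by edgeR's F-test of the line, beside 88.3% of all genes tested, so this share says little about the neighbors. *Adap2* did not pass that filter. The share of log2 variance lying between lines was 95.4% for *Utp6*, 91.6% for *Evi2a*, 84.5% for *Atad5*, 84.1% for *Crlf3*, 74.8% for *Tefm* and 51.0% for *Rnf135*, beside a median of 84.6% over all genes. The *Rnf135* call had an edgeR adjusted p of 0.0055, the highest of the 6. It was lost without culture 2 of each line.

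The 7 genes did not follow *Nf1* as a block. Pearson correlations of log2 CPM over the 6 lines ran from -0.88 to 0.72, and 4 of the 7 were above 0, beside 51.2% of all genes. Their median was 0.13, beside 0.02 over all 15206 genes set against *Nf1*. All p-values here are two-sided exact permutation tests over the 720 orders of the lines, which cannot give less than 0.00139, and with adjustment over all genes the lowest value of any gene was 0.986. An adjusted call was therefore out of reach, so the values below describe 6 lines.

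*Tefm* had the highest correlation (r = 0.72, exact p = 0.119; Spearman rho = 0.66, exact p = 0.175), and 4.6% of all genes had a higher one. *Crlf3* had r = 0.45 (exact p = 0.389; rho = 0.66, exact p = 0.175), *Utp6* 0.33 (exact p = 0.515; rho = 0.26, exact p = 0.658) and *Atad5* 0.13 (exact p = 0.808; rho = 0.03, exact p = 1.00). *Evi2a*, which lies inside *Nf1*, had r = -0.22 (exact p = 0.657; rho = -0.43, exact p = 0.419). *Rnf135* (r = -0.80, exact p = 0.0667; rho = -0.77, exact p = 0.103) and *Adap2* (r = -0.88, exact p = 0.0167; rho = -0.83, exact p = 0.0583) ran against *Nf1*. The unadjusted exact p of *Adap2* was under 0.05, as it was for 3.77% of all genes, and it rests on 5 to 18 counts per line. The leukocyte markers were high in all 3 *Nf1*/*Cdkn2a* dKO lines, *Adap2* in lines 1 and 3, with 6 counts in line 2. Whether leukocytes or the tumor cells gave the *Adap2* counts was not tested. Adjusted over all genes, the 7 exact p-values were 0.986 to 0.994.

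Without *Nf1*/*p53* dKO line 1 and *Nf1*/*Cdkn2a* dKO line 1, the lines farthest from the median of *Nf1*, r rested on 4 lines. It was 0.90 for *Tefm*, 0.81 for *Crlf3*, 0.47 for *Utp6*, 0.18 for *Atad5*, 0.03 for *Evi2a*, -0.76 for *Adap2* and -0.96 for *Rnf135* (exact p at least 0.0833 for the 7 genes, 24 orders of 4 lines). Within genotypes, after removing each group's mean, *Utp6* and *Atad5* turned to -0.52 and -0.75, while *Tefm* (0.49), *Crlf3* (0.66), *Evi2a* (-0.68), *Rnf135* (-0.69) and *Adap2* (-0.81) kept their signs (exact p 0.0833 to 0.528 for the 7 genes, 36 orders within genotypes). A fit with *Nf1* as a covariate gave the size of these relations. Per doubling of *Nf1*, the log2 level differed by 0.22 for *Tefm* (95% interval -0.18 to 0.61), 0.12 for *Utp6* (-0.26 to 0.50), 0.11 for *Crlf3* (-0.18 to 0.40) and 0.06 for *Atad5* (-0.50 to 0.62). A gene that moved in proportion to *Nf1* would have a slope equal to that of *Nf1* on itself. That slope was 1.00 by construction, so it is no test of *Nf1*. Even so its edgeR adjusted p was 0.277, and the fit called 0 of 15207 genes, so the lack of a call says little. The upper bounds of these 4 genes, of *Evi2a* (slope -0.17, -1.02 to 0.68) and of *Rnf135* (-0.31, -0.76 to 0.14) were all below 1.00. These intervals treat the level of *Nf1* as free of error. *Adap2* had a slope of -0.93 (-1.72 to -0.13, edgeR adjusted p = 0.989), which rests on 5 to 18 counts per line.

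**Figure D4:**
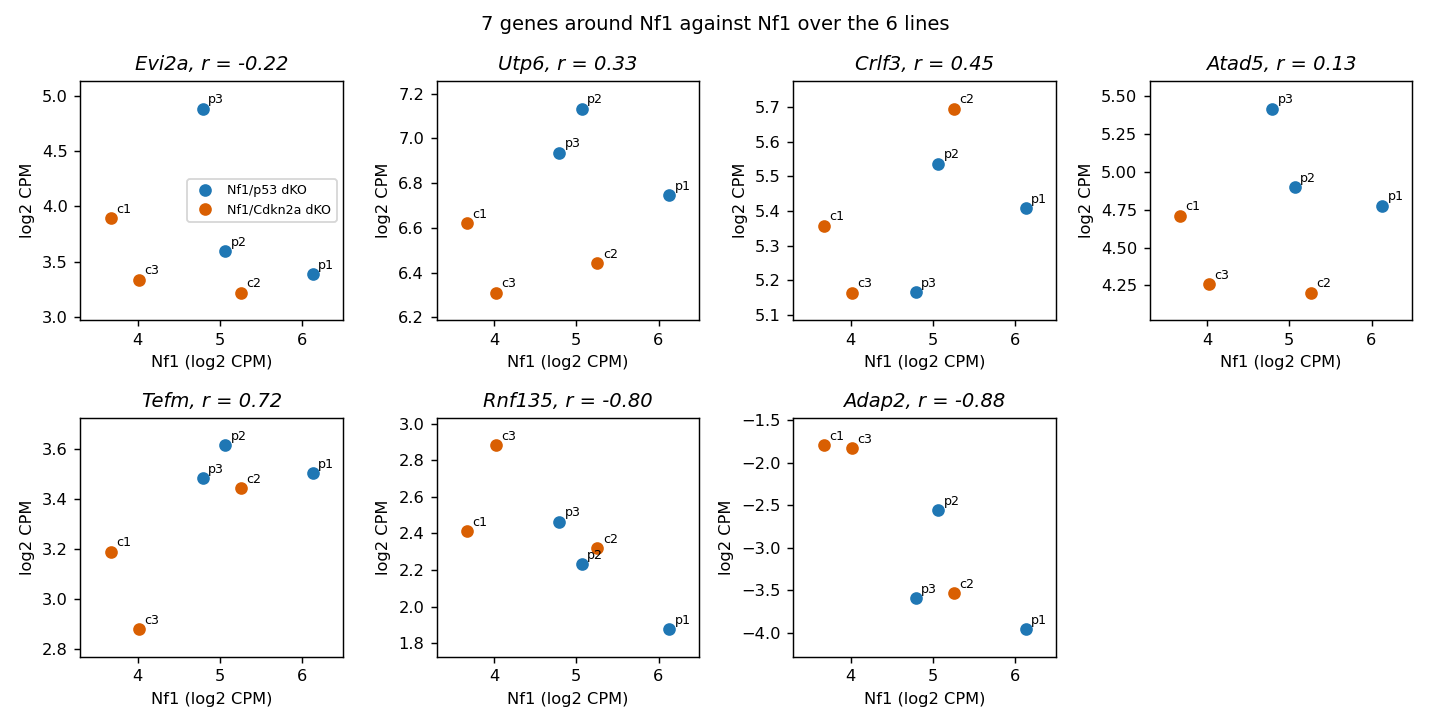
Log2 CPM of 7 neighbors (vertical axes, each with its own range) against log2 CPM of *Nf1* (horizontal axes), 1 point per line (p1 to p3, *Nf1*/*p53* dKO; c1 to c3, *Nf1*/*Cdkn2a* dKO), with Pearson r. *Tefm* is lowest in c1 and c3, where *Nf1* is lowest, and *Adap2* is highest there.

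The neighbors also varied in different ways among themselves. Of their 21 pairs, 10 had a correlation above 0 over the 6 lines, with a median of -0.14, as a description over lines that share libraries between genes. *Evi2a* and *Atad5* were the closest pair (r = 0.87), both highest in *Nf1*/*p53* dKO line 3, followed by *Utp6* with *Atad5* (r = 0.81) and with *Tefm* (r = 0.78). *Rnf135* and *Tefm*, 41.7 kb apart by their nearest ends and on opposite strands, had the lowest (r = -0.79). In its lowest line, *Nf1*/*Cdkn2a* dKO line 1, *Nf1* was at 0.416 of its median over the 6 lines. There the 6 better counted neighbors were at 0.827 (*Tefm*) to 1.32 (*Evi2a*) of theirs. Their own lowest lines were at 0.667 (*Tefm*) to 0.859 (*Crlf3*), and their highest at 1.11 (*Tefm*) to 2.63 (*Evi2a*), beside 2.29 for *Nf1*.

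The list was also set within the protein-coding genes up to 1 Mb either side of *Nf1*, 40 genes of which 31 passed the filter, the 7 neighbors among them. edgeR called none of the 31 between genotypes, and 5 had an unadjusted p under 0.05, beside 22.4% of all genes. DESeq2 on the 6 lines called 1, *Ksr1*, a scaffold of the RAF-MEK cascade on the 5′ side of *Nf1*, named after its value was seen, beside 11.8% of all genes. Of the 31, 8 did not overlap between genotypes, beside 31.4% of all genes, so none of these counts stood above the background. The median log2 fold change of the 31 was -0.10, beside -0.02 over all genes tested. It was -0.09 over 922 other genes of chromosome 11 and -0.10 over the 185 tested genes between *Trp53* and *Nf1*. By line, the median deviation from the mean over 6 lines was 0.14, 0.06 and -0.04 on the log2 scale in *Nf1*/*p53* dKO lines 1 to 3 and -0.06, -0.01 and -0.15 in *Nf1*/*Cdkn2a* dKO lines 1 to 3. The spread from lowest to highest line was 0.28, beside 0.03 over all genes tested, 0.12 over 922 other genes of chromosome 11 and 0.38 over the 185 tested genes between *Trp53* and *Nf1*. TMM scaling holds the median of all genes near 0, and with raw totals these spreads were 0.46, 0.19, 0.27 and 0.54. The medians rest on lists of very different size, from 31 to 15207 genes. *Nf1*/*p53* dKO line 1, where *Nf1* was highest, had the highest median in the window and in the interval towards *Trp53* (0.27), and a median of -0.01 over the rest of the chromosome.

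The other genes of the window with the highest correlation with *Nf1* lay on its 5′ side. They were *Poldip2* (r = 0.92), which encodes a partner of the DNA polymerase delta, *Unc119* (r = 0.88), a chaperone for lipid-modified proteins, and *Tmem199* (r = 0.85), a factor of the vacuolar proton pump. *Unc119* was at 19.2, 12.3 and 10.5 CPM in *Nf1*/*p53* dKO lines and at 6.90, 9.42 and 9.71 CPM in *Nf1*/*Cdkn2a* dKO lines. *Zfp207* (r = -0.63), *5730455P16Rik* (r = -0.47) and *Rhbdl3* (r = -0.38) had the lowest correlations among the window genes outside the list of 10, above those of *Adap2* and *Rnf135*, and lay on the 3′ side beyond *Rnf135*. Of the 31 genes, 5 had an unadjusted exact p under 0.05, namely these 3 highest, *Tmem97* (r = 0.83, named after its value was seen) and *Adap2*, beside 3.77% of all genes. The median r with *Nf1* was 0.21 over the 31 genes, of which 20 were above 0, beside 51.2% of all genes. It was 0.34 over the 185 tested genes between *Trp53* and *Nf1* (145 above 0), 0.03 over 922 other genes of chromosome 11 and 0.02 over all genes. The cause of these differences was not tested. Over all genes, those most like *Nf1* across the 6 lines were *Gm15506* (r = 0.99) on chromosome 7, *Nudt12* (r = 0.98) on chromosome 17 and *Hmgn5* (r = 0.98) on chromosome X, none of them a neighbor.

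**Figure D5:**
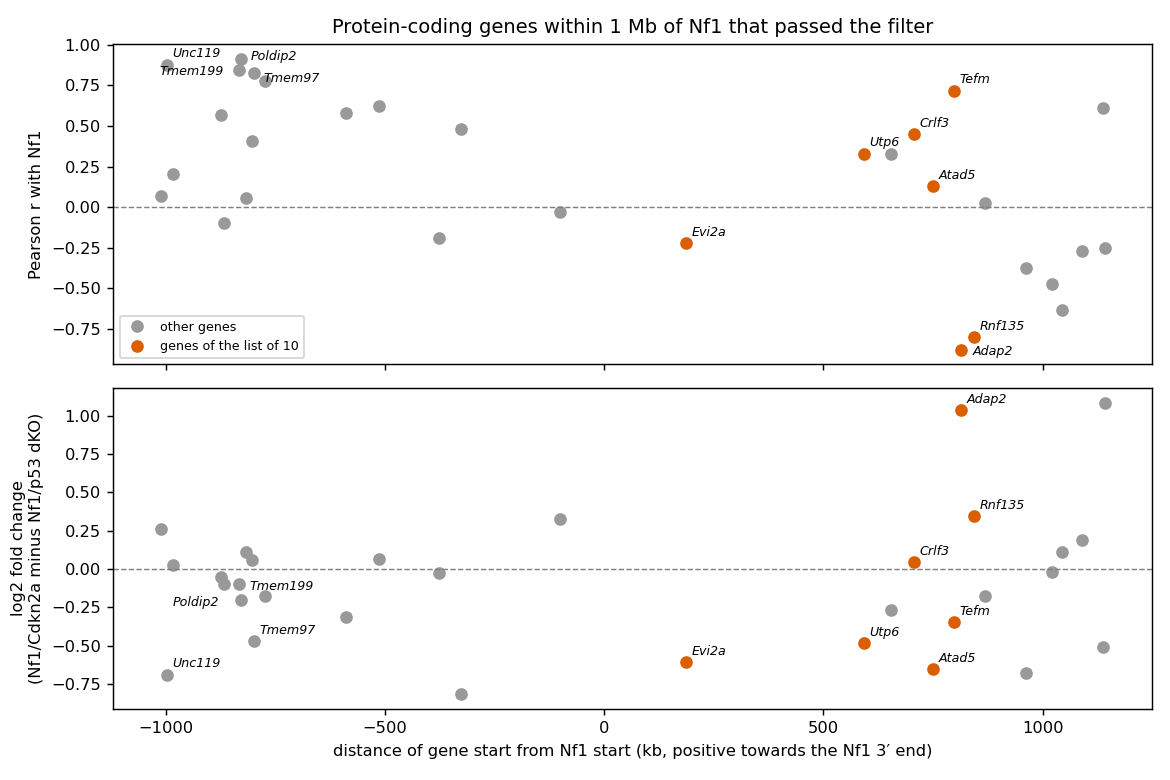
Pearson r with *Nf1* over 6 lines (upper panel) and log2 fold change between genotypes (lower panel) of the 31 tested protein-coding genes around *Nf1*, against the distance of the gene's lower coordinate from that of *Nf1* in kb, positive towards the 3′ end. Orange points are the 7 tested genes of the list, which span r from -0.88 to 0.72, and grey points the other 24.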

How the data were processed

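RNA of 18 cultures (3 lines of each genotype, 3 cultures of each line) was sequenced by a company. The deposited values are raw counts, whole numbers that the authors did not normalize. The submitters' processing notes name CASAVA, STAR 2.5, DESeq2 1.14.1 and GRCm38/mm10, while the counting tool, its annotation and its use of strand are not given in the sources used here. Intervals and floors cover counting error only where they come from single counts.

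The 3 cultures of each line were added up. Genes were kept with filterByExpr (minimum count 10, minimum total 15), scaled with TMM and compared between 3 and 3 lines with edgeR's quasi-likelihood test and Benjamini-Hochberg adjustment over 15207 genes (edgeR 4.0.16, limma 3.58.1, DESeq2 1.42.0, R 4.3.3). Lines were compared by an F-test on the 18 libraries (14690 genes). Correlations with *Nf1* used log2 CPM with a prior count of 2 and exact permutation over lines (Python 3.11.15, scipy 1.17.1, numpy 2.4.6, pandas 2.3.3, matplotlib 3.10.9). Positions came from GENCODE M21 (GRCm38), which held 34490 of the 35275 identifiers, and promoter entries from RefSeq (GRCm38.p6). Pairs of cultures of 1 line differed beyond sampling noise (chi-square per degree of freedom at least 3.50 in 18 pairs), so no pair was treated as 1 library deposited more than once. The labels give no sequencing batch. The steps were tested on simulated counts.

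The 10 genes and the lists were chosen with earlier results of these data known. The genes named are the 10, the edited genes, the called genes and the 3 highest and 3 lowest correlations with *Nf1* among other tested protein-coding genes within 1 Mb, and the 3 highest over all genes. Alternatives were other tools (DESeq2, limma-voom), scalings, prior counts and windows, no filter, blocks on line or culture number, rank correlation, and leaving out lines or cultures.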

Additional observations from a re-analysis of the deposited data

Results flagged for a closer look

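In 16 sets of 9 cultures (*Nf1* and the 7 tested neighbors in each genotype), 1 culture stood apart by Dixon's criterion, which chance passes in about 1 of 20 sets of independent values. The 9 cultures of a set come from 3 lines and are not independent, so that rate need not hold here. *Atad5* was at 33.5 CPM in culture 1 of *Nf1*/*Cdkn2a* dKO line 1, while the next highest of the 9 cultures was at 24.3 CPM. The gap was 0.517 of the range of the 9 values. This culture raised the level of the line that lay nearest to the *Nf1*/*p53* dKO group for *Atad5*.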

How the results depend on the processing

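No neighbor was called between genotypes over the 6 lines under DESeq2, beside 11.8% of all genes. The same held with DESeq2's size factors (beside 1.85%), raw totals (2.78%) and no filter (1.72%). With 1 line left out, 0 were called in each of the 6 fits, beside 0 to 1.11% of all genes. Shares this small make 0 calls likely for so few genes, so these fits say little about the neighbors. Treating the 18 cultures as separate samples called 3 (*Atad5*, *Tefm* and *Utp6*) with edgeR, beside 46.5% of all genes, and 4, *Evi2a* besides, with DESeq2, beside 38.9%. Limma-voom on the cultures, the line being a random term, called 1 (*Utp6*), beside 16.6% of all genes. With the replicate block on the line number 0 were called, beside 0% of all genes, and with the block on the culture number in the 18 cultures 3, beside 43.3%. Same-numbered lines did not deviate together (correlations -0.13 to -0.08, and -0.06 to 0.09 for culture numbers), so the numbers do not pair samples. Over all genes, 274 were called, compared with 6096 (edgeR) and 7171 (DESeq2) with 18 cultures, 5681 with the culture block, 2173 with limma-voom, 2055 with DESeq2 on 6 lines, 423 with raw totals, 411 without the filter, 0 with the line-number block and 0 to 172 with 1 line left out (0 without *Nf1*/*Cdkn2a* dKO line 1).

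All 6 neighbors were called between lines under limma-voom (beside 89.4% of all genes), DESeq2's size factors (88.3%) and the culture block (87.9%). Without a filter, 6 of the 9 neighbors tested were called, beside 57.4% of all genes. When 1 culture number was left out, 5 to 6 of the 6 to 7 tested were called, beside 81.3 to 84.0% of all genes. The number of neighbors with an unadjusted exact p under 0.05 for the correlation with *Nf1* was 1 (*Adap2*), beside 3.77% of all genes. It was 0 with Spearman's rho (beside 1.81% of all genes), within genotype (2.43%) and without the 2 farthest lines (2.24%). When 1 line was left out it was 0 to 1, beside 1.41 to 5.34% of all genes (*Rnf135* in place of *Adap2* without *Nf1*/*Cdkn2a* dKO line 1). With 7 genes and shares this small, a move between 0 and 1 says little about the neighbors. The correlation of *Atad5* was -0.12 without *Nf1*/*Cdkn2a* dKO line 3. The *Crlf3* fold change, near 0, took the other sign under raw totals (-0.09) and without *Nf1*/*p53* dKO line 3 or *Nf1*/*Cdkn2a* dKO line 2. The spread of window medians was 0.34 for 0.5 Mb, 0.32 for 2 Mb and 0.46 with raw totals, in place of 0.28. The cause of these differences was not tested. *Omg*, *Evi2b*, *Rab11fip4* and *Adap2* had at most 13 counts in a library, too few for firm comparisons at this depth.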
